A study of Lactuca sativa with 6 samples.

Results

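The genes described here are the defence receptor genes of lettuce (*Lactuca sativa*) that stand in the deposited table of young leaf RNA-seq values. They were chosen by their closest Swiss-Prot protein: a gene was taken when that description, whatever its case, contained "disease resistance", "TMV resistance", "Toll/interleukin" or "late blight resistance". The rule found 43 genes among the 2579 genes of the table. From the descriptions, 30 of them resemble receptors with a TIR domain, 9 resemble receptors of the coiled-coil type and 1 resembles a receptor of the RPW8 type. The other 3 are not receptors: 2 resemble a pea disease resistance response protein and 1 resembles ENHANCED DISEASE RESISTANCE 2, and they are described apart. The sample groups were WT plants of the cultivar S39 and *LsAP2*-OE plants, in which the coding sequence of *LsAP2* is driven by the 35S promoter of cauliflower mosaic virus, a promoter that is active in most tissues. Young leaves were taken from plants that were 1 month old, with 3 libraries of each group. The *LsAP2*-OE line or lines behind the libraries were not given in the sources used here, so a change that belongs to a line and one caused by *LsAP2* cannot be told apart. The table holds only genes that the study had called different between these same libraries. The counts, fold changes and p-values below therefore follow that selection and are not independent evidence of a difference.

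NLR proteins (nucleotide-binding, leucine-rich repeat) are receptors inside the plant cell that detect pathogen effector proteins, or the changes these cause in the cell, and start a defence response that often ends in local cell death. Their front domain sorts them into types. In *Arabidopsis*, TIR receptors act as enzymes that make small signal molecules, which are sensed by the EDS1 protein together with its partners PAD4 or SAG101 and passed to helper receptors of the RPW8 type. Coiled-coil receptors can assemble into a ring that lets calcium into the cell. NLR genes form large families of similar copies, are usually expressed at low levels in healthy leaves, and in lettuce include resistance genes against downy mildew.

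Overexpression was visible in the values of *LsAP2* itself (Lsat_1_v5_gn_3_89681). Its normalized values were 25.3, 27.9 and 30.5 in the WT libraries and 213.9, 209.3 and 224.5 in the *LsAP2*-OE libraries, so the groups were far apart (log2 fold change 2.95 ± 0.08 SE, limma adjusted p = 2.15e-08, n = 3 per group). All values below are the authors' normalized values, and all fold changes are *LsAP2*-OE relative to WT on the scale log2(value + 0.1). Lettuce copies named alike may share reads, and the depth behind the values is unknown.

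Most of these genes were higher in *LsAP2*-OE leaves. Of the 40 genes of the receptor types, 35 were called higher and 2 lower at a limma adjusted p below 0.01, and 3 were not called. With the 3 genes that are not receptors, 38 of the 43 were called higher and 2 lower, so that 40 were called in either direction. Over the whole table, 98.7% of the genes were called in either direction, 59.1% higher and 39.6% lower. All 3 *LsAP2*-OE libraries lay above all 3 WT libraries for 40 of the 43 genes and below them for 2, and the groups overlapped for 1. The same separation was found for 59.6% of the table's genes upwards and for 39.7% downwards. No test of the list against the rest of the table was made.

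The receptor genes had low values in the unit of the table, whose scaling for gene length is not named, and the size of their fold changes therefore depends on the constant added before taking logs. For the 40 genes of the receptor types, the mean over the WT libraries ranged from 0.0128 to 4.57 with a median of 0.417, and the mean over the *LsAP2*-OE libraries from 0.324 to 10.3 with a median of 1.20. The medians over the whole table were 3.62 and 4.39. The mean over all 6 libraries was below 1 for 27 of the 43 genes, all of them of the receptor types, against 369 of the 2579 genes of the table. The median log2 fold change of the 43 genes was 1.31, beside 1.03 for the table, where genes called higher and lower are mixed. With a constant of 1 instead of 0.1 these medians were 0.69 and 0.75, so their order turned, and the fold change of 33 of the 43 genes moved by over 1.5 times. The sign changed for 0 of the 43 genes. With the constant of 0.1 and only genes called higher, the median was 1.34 for 38 of the 43 genes and 1.39 for the table. Among genes called higher with a mean value below 1, it was 1.38 and 1.72.

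**Figure D1:**
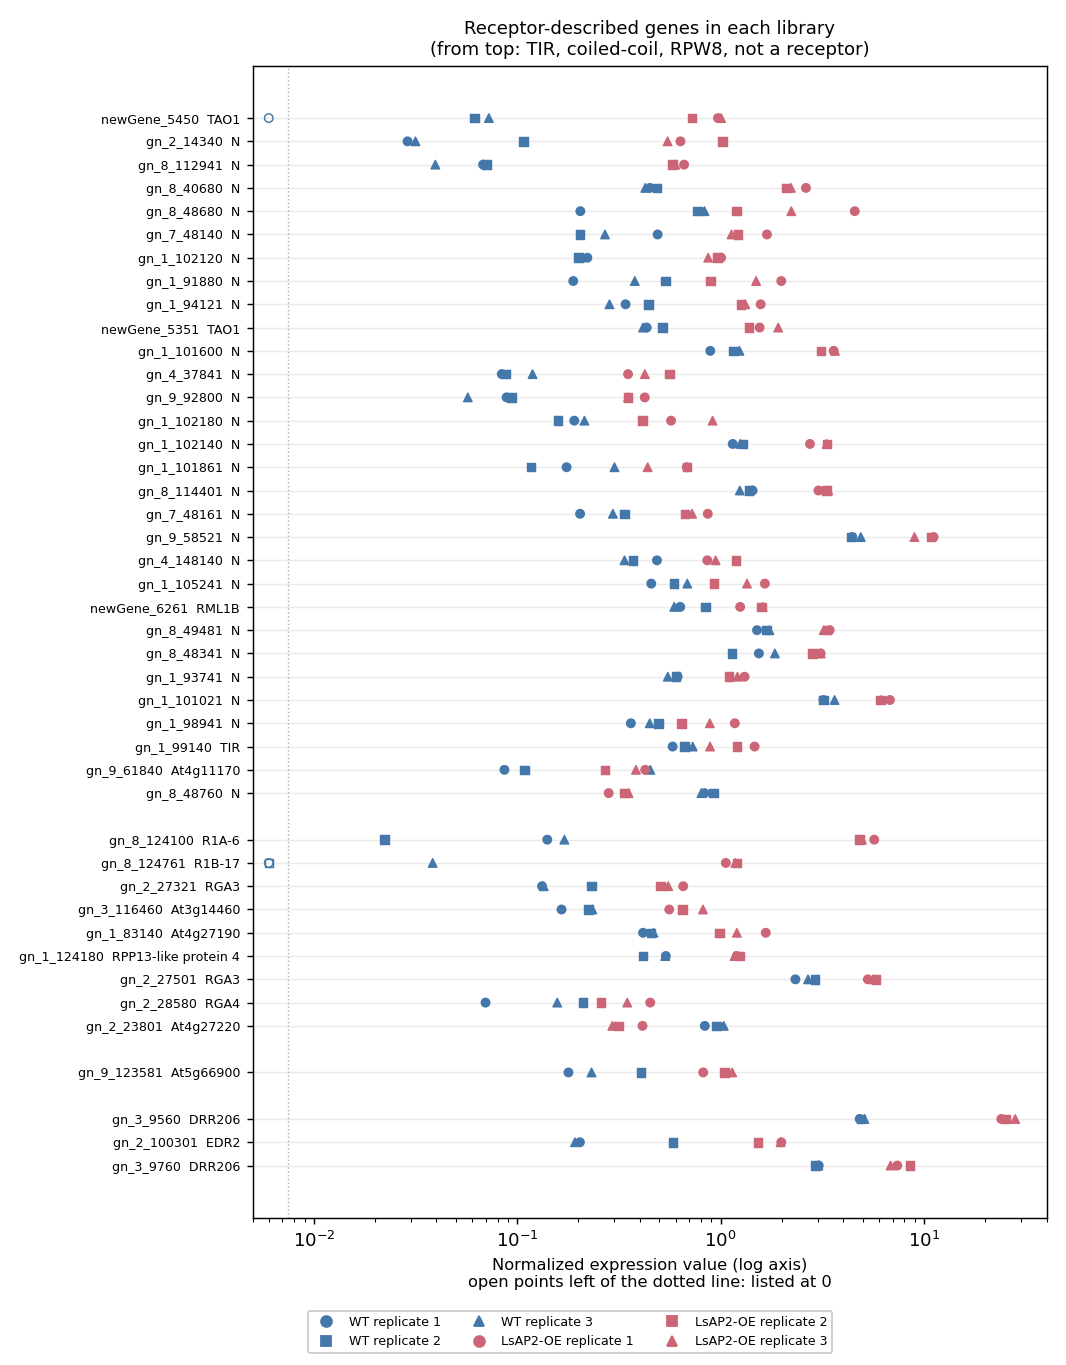
Normalized value (log axis) of each of the 43 genes in each of the 3 WT and 3 *LsAP2*-OE libraries, with the genes grouped by type and 1 point for each library. The *LsAP2*-OE points lie above the WT points in 40 genes and below them in 2.

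Among the 30 genes of the TIR type, 27 were called higher, 1 lower and 2 were not called, beside 59.1% higher and 39.6% lower over the table. Their log2 fold changes ranged from −1.17 to 2.82 with a median of 1.27. Summed over the 30 genes, the values were 21.4, 23.0 and 24.4 in the WT libraries and 62.4, 54.1 and 55.6 in the *LsAP2*-OE libraries. The lowest *LsAP2*-OE sum was thus above the highest WT sum. By description, 25 of the 30 resemble the N protein of tobacco, the TIR receptor that recognises tobacco mosaic virus, and 24 of these 25 were called higher and 1 lower. Such a description names the closest protein in the database and not the pathogen that the lettuce gene detects.

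The gene with the largest fold change of this type resembles TAO1, an *Arabidopsis* TIR receptor that takes part in the response to a bacterial effector (Lactuca_sativa_newGene_5450). It was listed at 0 in 1 WT library and at 0.0617 and 0.0725 in the others, and had values of 0.970, 0.723 and 1.01 in the *LsAP2*-OE libraries. Expression was thus close to 0 in every WT library and clearly above it in every *LsAP2*-OE library (log2 fold change 2.82 ± 0.27 SE, limma adjusted p = 1.30e-05, n = 3 per group). A second gene whose closest Swiss-Prot protein is TAO1 (Lactuca_sativa_newGene_5351) was also called higher, with values of 0.433, 0.518 and 0.415 in WT and of 1.55, 1.38 and 1.92 in *LsAP2*-OE (1.62 ± 0.20 SE, limma adjusted p = 7.35e-05). A second set of descriptions does not name TAO1 for either gene. There Lactuca_sativa_newGene_5450 is an uncharacterized protein and Lactuca_sativa_newGene_5351 is RML1A-like, as is Lactuca_sativa_newGene_6261.

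Large rises were also found for genes that resemble the N protein. Lsat_1_v5_gn_8_40680 had values of 0.449, 0.488 and 0.426 in WT and of 2.63, 2.10 and 2.21 in *LsAP2*-OE, a wide gap beside the spread within each group (log2 fold change 2.12 ± 0.18 SE, limma adjusted p = 7.50e-06, n = 3 per group). Lsat_1_v5_gn_2_14340 rose from 0.0289, 0.107 and 0.0316 to 0.634, 1.02 and 0.548 (2.42 ± 0.29 SE, limma adjusted p = 5.74e-05). Lsat_1_v5_gn_8_112941 rose from 0.0679, 0.0705 and 0.0396 to 0.661, 0.580 and 0.599 (2.17 ± 0.20 SE, limma adjusted p = 9.10e-06). Both were near 0 in all 3 WT libraries. Lsat_1_v5_gn_8_48680 had the largest standard error among the 5 TIR genes with the largest fold changes. Its values were 0.204, 0.770 and 0.832 in WT and 4.56, 1.19 and 2.23 in *LsAP2*-OE, so the groups did not overlap but both spread widely (1.94 ± 0.55 SE, limma adjusted p = 0.00809). Leaving out single libraries or changing other settings moved that adjusted p between 0.00373 and 0.0299, and the call was lost without WT replicate 1 (0.0215), 2 (0.0107) or 3 (0.0101) and without *LsAP2*-OE replicate 1 (0.0299) or 3 (0.0229). It was also lost with a replicate block (0.0180), without the mean-variance trend (0.0180) and with a constant of 0.01 (0.0118).

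The 5 TIR genes with the highest mean values all had groups that were apart, with log2 fold changes from 0.90 to 1.58. Lsat_1_v5_gn_9_58521 had values of 4.44, 4.37 and 4.89 in WT and of 11.1, 10.8 and 8.97 in *LsAP2*-OE (log2 fold change 1.15 ± 0.12 SE, limma adjusted p = 1.82e-05, n = 3 per group). Lsat_1_v5_gn_1_101021 went from 3.20, 3.20 and 3.63 to 6.80, 6.10 and 6.13 (0.90 ± 0.12 SE, limma adjusted p = 8.89e-05). Within each of these 2 genes, every *LsAP2*-OE library was clearly above every WT library. The values of Lsat_1_v5_gn_8_49481 were 1.51, 1.68 and 1.73 in WT and 3.44, 3.33 and 3.21 in *LsAP2*-OE (0.98 ± 0.15 SE, limma adjusted p = 2.02e-04). Those of Lsat_1_v5_gn_8_114401 were 1.44, 1.38 and 1.24 in WT and 3.02, 3.32 and 3.38 in *LsAP2*-OE (1.20 ± 0.15 SE, limma adjusted p = 7.84e-05). Those of Lsat_1_v5_gn_1_101600 were 0.889, 1.16 and 1.24 in WT and 3.59, 3.12 and 3.65 in *LsAP2*-OE (1.58 ± 0.18 SE, limma adjusted p = 4.00e-05). These 3 genes also kept a gap between the groups that was wider than the spread within either. A gene that resembles RLM1B, from an *Arabidopsis* locus of TIR receptors that includes a resistance gene against the blackleg fungus of *Brassica* crops (Lactuca_sativa_newGene_6261), had values of 0.633, 0.844 and 0.591 in WT and of 1.25, 1.59 and 1.61 in *LsAP2*-OE (1.01 ± 0.21 SE, limma adjusted p = 0.00155).

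One TIR gene was lower in *LsAP2*-OE leaves, and it stands among neighbours by gene ID that were higher. Lsat_1_v5_gn_8_48760, which resembles the N protein, had values of 0.833, 0.923 and 0.804 in WT and of 0.281, 0.336 and 0.353 in *LsAP2*-OE. All 3 *LsAP2*-OE libraries were below all 3 WT libraries (log2 fold change −1.17 ± 0.19 SE, limma adjusted p = 3.53e-04, n = 3 per group). The nearest IDs among the 43 genes are Lsat_1_v5_gn_8_48341, Lsat_1_v5_gn_8_48680 and Lsat_1_v5_gn_8_49481, which also resemble the N protein, and all 3 were called higher. The values of Lsat_1_v5_gn_8_48341 were 1.54, 1.14 and 1.85 in WT and 3.10, 2.82 and 3.11 in *LsAP2*-OE (0.97 ± 0.20 SE, limma adjusted p = 0.00133). If these genes share sequence, reads that fit several of them could move values between them. How such reads were handled was not given in the sources used here.

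Both TIR genes that were not called missed the threshold, but only 1 of them had overlapping groups. Lsat_1_v5_gn_1_99140, described as a Toll/interleukin-1 receptor-like protein, had values of 0.581, 0.665 and 0.729 in WT and of 1.47, 1.20 and 0.887 in *LsAP2*-OE, without overlap (log2 fold change 0.74 ± 0.23 SE, limma adjusted p = 0.0119, n = 3 per group). Without *LsAP2*-OE replicate 3, the lowest of its group, that limma adjusted p was 0.00556. Without any other single library it lay between 0.0193 and 0.0462. Lsat_1_v5_gn_9_61840, which resembles the putative *Arabidopsis* receptor At4g11170, had values of 0.0865, 0.108 and 0.451 in WT and of 0.426, 0.270 and 0.383 in *LsAP2*-OE. Here the WT library of replicate 3 was above all 3 *LsAP2*-OE libraries (0.71 ± 0.41 SE, limma adjusted p = 0.120). Without WT replicate 3 its limma adjusted p was 0.00228, and without any other single library it lay between 0.113 and 0.349.

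Of the 30 TIR genes, 12 have IDs that fall into 1 block, from Lsat_1_v5_gn_1_91880 to Lsat_1_v5_gn_1_105241. Genes were placed in a block when the last numbers of successive IDs differed by at most 5000, and the ID fields were read as written, since no coordinates are given. In this block 11 genes were called higher, 1 was not called (Lsat_1_v5_gn_1_99140) and 0 were called lower, and all 12 had every *LsAP2*-OE library above every WT library. Over the table, 59.1% of the genes were called higher and 59.6% had this separation upwards. The log2 fold changes of the block lay between 0.74 and 1.76 with a median of 1.27. Those of the 18 TIR genes outside the block ran from −1.17 to 2.82 with a median of 1.30. The low end outside the block is the 1 gene called lower, Lsat_1_v5_gn_8_48760, and the next lowest fold change there was 0.71. The table was selected for changes of 2-fold or more, which shapes both ranges. The summed values of the block were 8.37, 9.45 and 9.91 in WT and 24.6, 20.6 and 22.5 in *LsAP2*-OE. In a second database, 11 of the 12 genes match a single entry, RGC151, a resistance gene candidate of *Helianthus annuus*. Over all 43 genes, 14 match RGC151, so the match is not particular to the block. The low end of the block's range of fold changes is the uncalled gene and the high end is Lsat_1_v5_gn_1_102120, with values of 0.221, 0.200 and 0.204 in WT and of 1.00, 0.965 and 0.868 in *LsAP2*-OE. Of the 11 called genes, 3 lost the call when single libraries were left out: Lsat_1_v5_gn_1_98941 (limma adjusted p between 0.0132 and 0.0321 without any 1 library except *LsAP2*-OE replicate 2), Lsat_1_v5_gn_1_105241 (up to 0.0167, without WT replicate 1 or 2 or *LsAP2*-OE replicate 1 or 3) and Lsat_1_v5_gn_1_101861 (0.0112 and 0.0105, without *LsAP2*-OE replicate 1 or 2).

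The table lists 6 further genes with IDs inside the span of that block. Of these, 4 were called higher and 2 lower, a split near the 59.1% and 39.6% of the whole table. The higher ones include a gene that resembles a leucine-rich repeat receptor-like kinase (Lsat_1_v5_gn_1_96600, log2 fold change 1.03) and an SCPL40-like gene (Lsat_1_v5_gn_1_104541, 1.92). The others called higher are Lsat_1_v5_gn_1_96461 (1.60) and Lsat_1_v5_gn_1_97640 (3.54). The lower ones resemble SOT13, a cytosolic sulfotransferase (Lsat_1_v5_gn_1_95920, log2 fold change −5.11), and CAB21, a chlorophyll a-b binding protein of the light-harvesting antenna (Lsat_1_v5_gn_1_95341). IDs whose first number is 1 make up 32.6% of the 43 genes (14 of them) and 8.76% of the table. IDs whose first number is 8 make up 20.9% and 13.0%, and none of the 43 genes has an ID starting with 0, 5 or 6. In all, 30 of the 43 genes fall into 8 blocks of at least 2 genes. The share of the table's genes that would fall into such blocks was not computed.

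**Figure D2:**
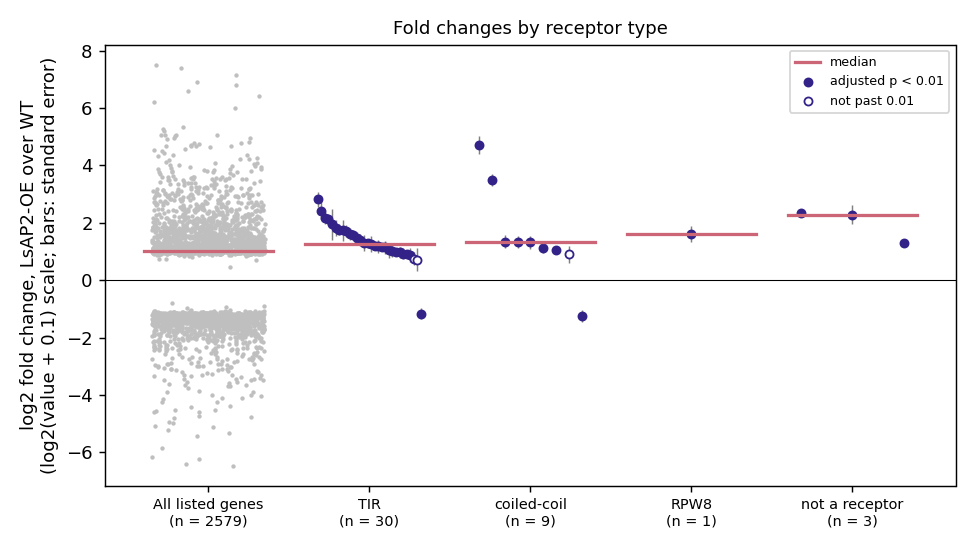
Log2 fold change of *LsAP2*-OE relative to WT on the log2(value + 0.1) scale for each of the 43 genes, grouped by type, with standard errors from limma as bars. Fold changes range from −1.25 to 4.71, with 2 genes called lower and 3 not called.

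The largest rise of all 43 genes was that of a coiled-coil gene, with constants of 0.1, 1 and 0.01 alike. Of the 9 coiled-coil genes, 7 were called higher, 1 lower and 1 was not called, beside 59.1% higher and 39.6% lower over the table. The 9 genes had a median log2 fold change of 1.32 and a range from −1.25 to 4.71. Their summed values were 4.63, 5.43 and 5.46 in WT and 17.0, 15.8 and 16.2 in *LsAP2*-OE. The groups did not overlap in this sum.

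Both genes that resemble late blight resistance proteins rose from very low values. These potato family proteins belong to the group of R1, a receptor against the late blight pathogen *Phytophthora infestans*. The R1A-6-like gene (Lsat_1_v5_gn_8_124100) had values of 0.140, 0.0223 and 0.170 in WT and of 5.69, 4.82 and 4.95 in *LsAP2*-OE. The ratio of the group means was 46.4, and the groups were far apart (log2 fold change 4.71 ± 0.31 SE, limma adjusted p = 1.49e-06, n = 3 per group). With a constant of 1 added before taking logs its fold change was 2.47, and with 0.01 it was 5.75. The R1B-17-like gene (Lsat_1_v5_gn_8_124761) was listed at 0 in 2 WT libraries and at 0.0384 in WT replicate 3, and had values of 1.06, 1.20 and 1.18 in *LsAP2*-OE (3.48 ± 0.22 SE, limma adjusted p = 1.08e-06). Its fold change was 1.08 with a constant of 1 and 6.10 with 0.01. The IDs of both genes are close, and the table lists 1 gene between them, which resembles the metal-binding protein HIPP26 (Lsat_1_v5_gn_8_124520) and was also called higher (1.82).

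A further group of coiled-coil genes has IDs from Lsat_1_v5_gn_2_23801 to Lsat_1_v5_gn_2_28580, and its 4 genes did not move together. Of these genes, 3 resemble RGA3 or RGA4, coiled-coil receptor relatives from a wild potato species. The RGA3-like gene Lsat_1_v5_gn_2_27501 had values of 2.33, 2.92 and 2.69 in WT and of 5.29, 5.79 and 5.65 in *LsAP2*-OE (log2 fold change 1.05 ± 0.13 SE, limma adjusted p = 7.32e-05, n = 3 per group). The other RGA3-like gene, Lsat_1_v5_gn_2_27321, rose from 0.132, 0.232 and 0.135 to 0.654, 0.505 and 0.552 (1.35 ± 0.23 SE, limma adjusted p = 4.24e-04). In both, every *LsAP2*-OE library was above every WT library. The RGA4-like gene Lsat_1_v5_gn_2_28580 was not called, with values of 0.0698, 0.211 and 0.157 in WT and of 0.451, 0.258 and 0.347 in *LsAP2*-OE (0.90 ± 0.29 SE, limma adjusted p = 0.0137). Without WT replicate 2 that limma adjusted p was 0.00824, and without any other single library it lay between 0.0126 and 0.0530. Lsat_1_v5_gn_2_23801, which resembles the *Arabidopsis* receptor At4g27220, was lower. Its values were 0.836, 0.952 and 1.04 in WT and 0.413, 0.314 and 0.293 in *LsAP2*-OE, so the groups were apart in the opposite direction (−1.25 ± 0.21 SE, limma adjusted p = 3.76e-04).

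The remaining 3 coiled-coil genes rose by similar amounts. The gene that resembles RPP13-like protein 4, known in *Arabidopsis* as ZAR1, a receptor that assembles into a calcium channel on activation (Lsat_1_v5_gn_1_124180), had values of 0.538, 0.416 and 0.534 in WT and of 1.20, 1.24 and 1.17 in *LsAP2*-OE (log2 fold change 1.14 ± 0.19 SE, limma adjusted p = 4.11e-04, n = 3 per group). The At4g27190-like gene (Lsat_1_v5_gn_1_83140) had values of 0.416, 0.454 and 0.468 in WT and of 1.67, 0.986 and 1.20 in *LsAP2*-OE (1.32 ± 0.23 SE, limma adjusted p = 5.30e-04). The At3g14460-like gene (Lsat_1_v5_gn_3_116460) had values of 0.165, 0.224 and 0.234 in WT and of 0.559, 0.650 and 0.818 in *LsAP2*-OE (1.33 ± 0.22 SE, limma adjusted p = 3.77e-04). None of these 3 genes had overlapping groups.

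The single gene of the RPW8 type was also higher in *LsAP2*-OE leaves. It resembles At5g66900, an NRG1 helper receptor of *Arabidopsis* that works with EDS1 and SAG101 downstream of TIR receptors (Lsat_1_v5_gn_9_123581). Its values were 0.178, 0.405 and 0.232 in WT and 0.821, 1.05 and 1.14 in *LsAP2*-OE. The lowest *LsAP2*-OE library was above the highest WT library (log2 fold change 1.60 ± 0.27 SE, limma adjusted p = 4.25e-04, n = 3 per group).

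The table also lists 3 genes for proteins known to work with NLR receptors, and all 3 were called higher, in a table where 59.1% of the genes were. The gene that resembles EDS1L, the lipase-like protein through which TIR receptors signal (Lsat_1_v5_gn_5_18180), had values of 3.30, 3.31 and 3.98 in WT and of 9.82, 10.7 and 9.01 in *LsAP2*-OE (log2 fold change 1.45 ± 0.12 SE, limma adjusted p = 5.91e-06, n = 3 per group). Its partner SAG101 (Lsat_1_v5_gn_4_181061) had values of 4.02, 3.91 and 3.91 in WT and of 9.12, 8.92 and 9.20 in *LsAP2*-OE (1.18, limma adjusted p = 4.27e-06). An HSP83A-like gene (Lsat_1_v5_gn_2_131360) had values of 0.564, 0.447 and 0.423 in WT and of 1.11, 1.01 and 1.29 in *LsAP2*-OE (1.10 ± 0.20 SE, limma adjusted p = 7.27e-04). The protein it resembles is an HSP90 chaperone, the family that helps NLR receptors fold. In all 3 genes the groups were apart.

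The 3 genes that the rule took but that are not receptors were all called higher, in a table where 59.1% of the genes were. The disease resistance response protein of pea is a dirigent protein, which guides the coupling of phenols into lignans. One lettuce gene that resembles it (Lsat_1_v5_gn_3_9560) had values of 4.82, 4.91 and 5.09 in WT and 24.0, 25.2 and 28.1 in *LsAP2*-OE (log2 fold change 2.36 ± 0.09 SE, limma adjusted p = 1.04e-07, n = 3 per group). The other (Lsat_1_v5_gn_3_9760) had values of 3.04, 2.93 and 3.02 in WT and of 7.39, 8.51 and 6.85 in *LsAP2*-OE (1.31 ± 0.12 SE, limma adjusted p = 1.11e-05). Both groups were tight beside the gap between them. ENHANCED DISEASE RESISTANCE 2 is a lipid-binding protein that restrains cell death and defence against powdery mildew in *Arabidopsis*. The lettuce gene that resembles it (Lsat_1_v5_gn_2_100301) had values of 0.203, 0.583 and 0.192 in WT and of 1.99, 1.53 and 1.97 in *LsAP2*-OE (2.29 ± 0.34 SE, limma adjusted p = 2.11e-04).

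The *LsAP2*-OE libraries did not stand equally high in these genes. Replicate 1 was the highest *LsAP2*-OE library for 24 of the 43 genes (55.8%), beside 32% of the genes of the table and 40.7% of its genes with a mean value below 1. Among only the genes called higher, replicate 1 was the highest for 20 of 38 (52.6%), beside 31% of those of the table. In the block of 12 TIR genes it was the highest for 9 (75%). Replicate 2 was the lowest *LsAP2*-OE library for 21 of the 43 genes (48.8%), beside 30.9% of the table and 39% of its genes with a mean value below 1. Relative to the mean of the 3 *LsAP2*-OE libraries, the median value of the block's genes was 1.11 in replicate 1, 0.912 in replicate 2 and 0.992 in replicate 3. For the other 31 genes these medians were 1.03, 0.946 and 0.972. Of the block's 12 genes, 11 match the same database entry, and all were measured in the same libraries. They are therefore not separate observations of this pattern. Without *LsAP2*-OE replicate 1, 34 of the 43 genes were called higher and 2 lower, beside 1472 and 1008 of the table's 2579 genes. The median coefficient of variation was 19.6% among the WT libraries and 13.4% among the *LsAP2*-OE libraries, beside 13.0% and 10% for the table. Among genes with a mean value below 1 it was 22.5% and 18.8% for the 27 genes described here and 27.2% and 19.6% for the table.

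**Figure D3:**
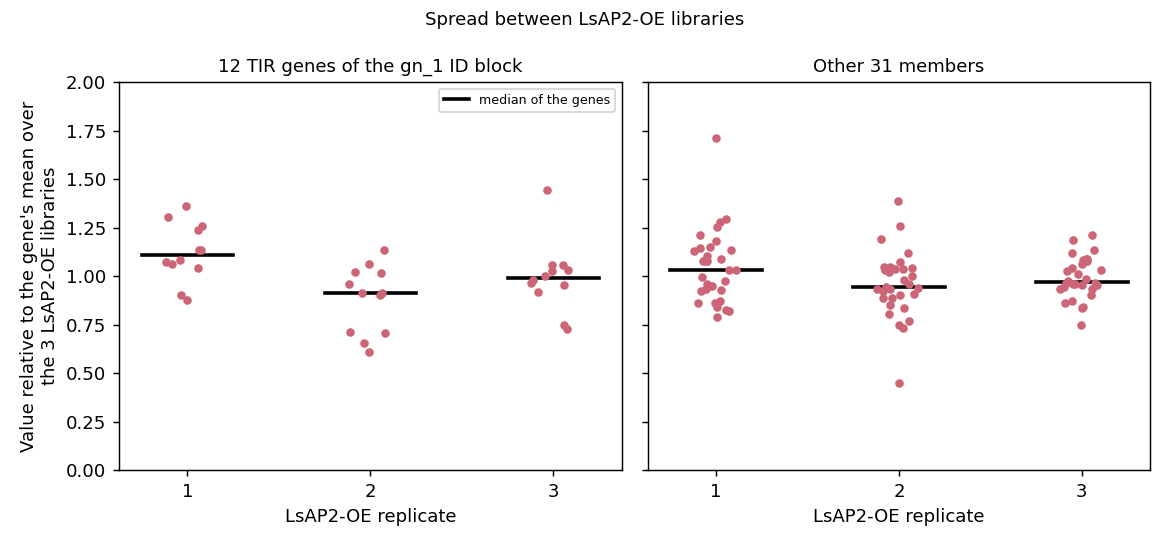
Value of each gene in each *LsAP2*-OE library divided by its mean over the 3 *LsAP2*-OE libraries, for the 12 TIR genes of the largest block and for the other genes, with the median marked. The block's medians are 1.11, 0.912 and 0.992 in replicates 1, 2 and 3, and those of the other genes are 1.03, 0.946 and 0.972.

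Surface receptors sense pathogens or wall damage outside the cell. Of 21 genes for surface receptors and their oxidases, 19 were called higher, 1 lower and 1 was not called, beside 59.1% higher and 39.6% lower over the table, with a median log2 fold change of 1.59 (1.03 over the table). The largest change was in a gene that resembles wall-associated kinase WAK2, a family that binds cell wall pectin (Lsat_1_v5_gn_9_35061). It had values of 0.0207, 0.156 and 0.0482 in WT and of 3.25, 3.25 and 2.79 in *LsAP2*-OE (4.26). An RLP12-like gene (Lsat_1_v5_gn_6_42540) changed by 3.60, and a gene that resembles FLS2, the receptor for bacterial flagellin (Lsat_1_v5_gn_8_157520), by 3.20. The gene called lower resembles WAK3 (Lsat_1_v5_gn_3_53820, −2.41), and the uncalled one resembles WAK5 (Lsat_1_v5_gn_9_35021, limma adjusted p = 0.0114). These 2 genes and those named from the defence protein list beyond its 3 largest changes were chosen after their values were seen.

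Of 17 genes for defence proteins, 11 were called higher and 6 lower, a split near the 59.1% and 39.6% of the whole table, with a median log2 fold change of 1.32. The 3 largest changes were rises, of a chitin-degrading endochitinase (Lsat_1_v5_gn_8_111541, 3.83), of the wall-degrading 1,3-beta-glucosidase A (Lsat_1_v5_gn_1_49441, 3.47) and of chitinase 6 (Lsat_1_v5_gn_3_124481, 2.87). The endochitinase had values of 0.570, 0.677 and 1.48 in WT and of 13.9, 13.4 and 12.5 in *LsAP2*-OE. A gene for the basic form of pathogenesis-related protein 1, a protein widely used as a sign of defence (Lsat_1_v5_gn_5_111400), rose from 2.23, 1.10 and 2.53 to 5.61, 6.92 and 4.63 (1.56). Those called lower included defensin SD2, an antimicrobial peptide (Lsat_1_v5_gn_8_34040, −1.86), and an osmotin-like protein (Lsat_1_v5_gn_9_22780, −1.89). The defensin gene had values of 1165, 733 and 807 in WT and of 245, 276 and 212 in *LsAP2*-OE, far above those of the endochitinase. Summed over the 17 genes, the values were 2088, 1633 and 1621 in WT and 817, 873 and 795 in *LsAP2*-OE. This sum is weighted towards the genes with the highest values. For salicylic acid, the hormone tied to NLR responses, the table lists 2 genes. The SABP2-like gene (Lsat_1_v5_gn_3_92401), whose tobacco relative frees salicylic acid from its methyl ester, was higher (2.49). The SAMT-like gene (Lsat_1_v5_gn_3_75880), for an enzyme that makes the methyl ester, was lower (−2.08).

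**Figure D4:**
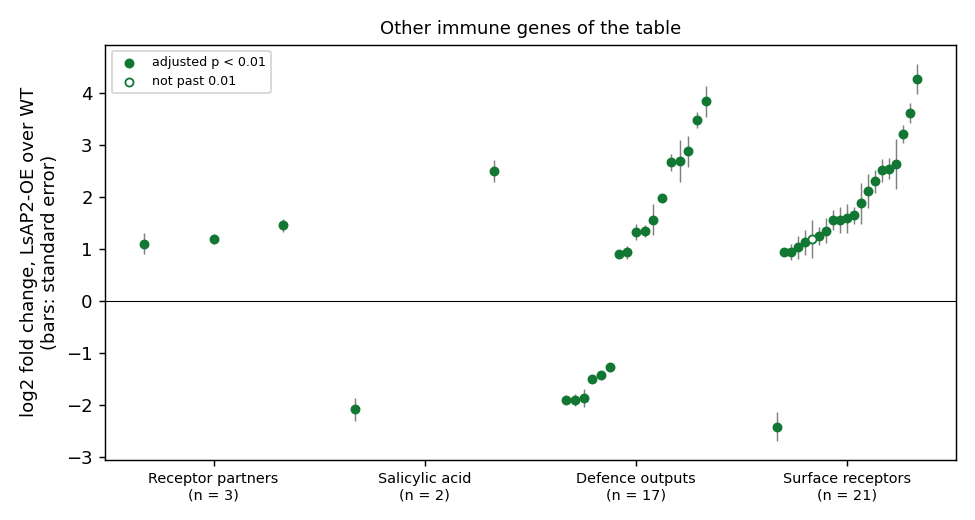
Log2 fold change of *LsAP2*-OE relative to WT on the log2(value + 0.1) scale for each gene of the partner, salicylic acid, defence protein and surface receptor lists, with standard errors from limma as bars. All 3 partners lie above 0, 19 of 21 surface receptor genes were called higher, and the 17 defence proteins split into 11 higher and 6 lower.

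In whole leaves, more transcript in each cell and more cells of a type cannot be told apart, and genes that mark leaf cell types also differed between the groups. Summed Rubisco small chain values, from 6 genes that were all higher, ran from 6074 to 6512 in WT and from 16951 to 19691 in *LsAP2*-OE. Those of 8 chlorophyll a-b binding genes, all lower, ran from 2615 to 3258 and from 1002 to 1166. The xylem markers, 5 of 5 higher, summed to between 9.87 and 12.5 in WT and between 26.5 and 28.3 in *LsAP2*-OE. Both phloem markers, 1 higher and 1 lower, summed to between 67.7 and 78.2 and between 127 and 137. The guard cell regulator FAMA was higher, at 1.75 to 2.19 and 4.32 to 4.86, and the 8 latex genes, 6 higher and 2 lower, summed to between 719 and 829 and between 457 and 483. Their part in the receptor values was not tested.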

How the data were processed

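RNA-seq libraries of young lettuce leaves, 3 WT and 3 *LsAP2*-OE, were analysed. Reads were aligned by the authors with HISAT2, and DESeq was used to call genes that changed by 2-fold or more at an FDR under 0.01. Tool versions, the quantifying program, the genome build and the handling of reads that fit several copies were not given in the sources used here. What was deposited is a normalized signal per gene and library, with no name for its normalization. Depth could not be recovered from it, so the counting precision is unknown. The deposited table holds the 2579 called genes. Its 3 columns of the authors' comparison, an adjusted p-value, a log2 fold change and a direction, were not used.

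All genes of the table were fitted with limma 3.58.1 in R 4.3.3 on log2(value + 0.1), with a mean-variance trend, without a filter or a replicate block, with Benjamini-Hochberg adjustment over all 2579 genes and a threshold of 0.01. This fit was tested on simulated data with 2579 genes and 3 libraries per group, in which most genes were left unchanged. Of 50 genes changed by each log2 amount, 90% were recovered at −2, 56% at −1, 58% at 1 and 84% at 2, with 3 false calls. In the real table all genes were selected as different and 98.7% were called. The simulated recovery and false calls therefore do not give the rates for this table. P-values weigh the difference between the groups against the spread between these libraries, moderated over all genes of the table. They do not cover spread between lines. Alternatives were pseudocounts of 1 and 0.01, a mean value of at least 1, no trend, a replicate block, centring within groups, a threshold of 0.05, leaving out each library, and types or members read from the second set of descriptions.

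The genes and lists were chosen with earlier results of these data known. Named were *LsAP2*, genes that were lower, not called, overlapping or outside the TIR and coiled-coil types, the 5 largest fold changes and the 5 highest means of the TIR and of the coiled-coil type, all listed partners and up to 3 of the largest changes of each other list. Further TIR genes, the neighbours by ID and the list genes marked in the text were named after their values were seen. Types follow the closest Swiss-Prot protein. Of the gene IDs, 0 matched the RefSeq table at hand, so no sequences or coordinates are given.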

Additional observations from a re-analysis of the deposited data

How the results depend on the processing

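Of 489 values of single genes under the alternatives at a threshold of 0.01, 463 kept their direction and their side of the threshold, 21 lost the call, 5 gained it and 0 reversed. Of the 43 genes, 36 were called in every setting in which they were tested. The calls of Lsat_1_v5_gn_1_101861, Lsat_1_v5_gn_1_105241, Lsat_1_v5_gn_1_98941 and Lsat_1_v5_gn_8_48680 were lost in at least 1 setting. At a threshold of 0.05, 40 of the 43 genes were called higher and 2 lower. With a mean value of at least 1, only 16 of the 43 genes were tested, and 16 were called higher and 0 lower. Of the 2210 genes of the table tested in this setting, 1294 were called higher and 891 lower. The setting left 11 TIR genes, of which 11 were higher and 0 lower, and 2 coiled-coil genes, of which 2 were higher and 0 lower. Leaving out single libraries gave between 34 and 37 higher and 2 lower of the 43 genes. Of the TIR type it gave between 23 and 26 higher and 1 lower, and of the coiled-coil type between 7 and 8 higher and 1 lower. Over the 2579 genes of the table it gave between 1472 and 1501 higher and between 996 and 1008 lower. Deviations of libraries with the same replicate number correlated at −0.0136, −0.0389 and 0.0136, so no pairing by number was visible in these selected genes. Such values cannot show that the samples were not paired. With the replicate block 36 of the 43 genes were called higher and 2 lower, with 25 and 1 of the TIR type and 7 and 1 of the coiled-coil type. Read from the second set of descriptions, 3 genes were of the coiled-coil type, 0 of the RPW8 type and 12 could not be typed, and the rule found 28 genes. Values near 0 and the unknown depth limit how exactly the fold changes of the lowest genes are known.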
